A study of Drosophila melanogaster with 33 samples.

Results

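In TRIBE, an RNA-binding protein is fused to the editing domain of ADAR (ADARcd), which turns adenosines near the protein's contact with an mRNA into inosines that are read as guanosines. The positions described here were listed as edited in fly brain with full-length Ataxin-2 (Atx2_WT) and were not listed when the Lsm domain had been deleted (Atx2_delta_Lsm). A position, taken as chromosome and end coordinate on dm6, was a member when at least 1 of the 2 Atx2_WT libraries listed it and neither of the 2 Atx2_delta_Lsm libraries did. There were 229 such positions among the 671 of Atx2_WT, and they are called Lsm-unlisted below. The other 442 positions, which at least 1 Atx2_delta_Lsm library listed too, are called Lsm-listed. The members were thus chosen by their listing, which rests on edit percents of 15 or more, so their percents in Atx2_WT and their absence from Atx2_delta_Lsm are a description and not a test.

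The study sequenced brains in which each Ataxin-2 fusion, carrying ADARcd and a V5 tag, was expressed from a UAS transgene inserted on the second chromosome. The driver was elav-Gal4, which acts in postmitotic neurons, and tub-Gal80ts held it back until the adult flies were moved to a higher temperature. Each library pooled several brains, each form had 2 libraries, and all these flies still carried their endogenous Atx2. Besides Atx2_WT and Atx2_delta_Lsm, the forms were Atx2_delta_LsmAD (deletion of the Lsm-associated domain), Atx2_delta_mIDR and Atx2_delta_cIDR (deletion of the middle or the C-terminal intrinsically disordered region), and Atx2_Lsm_LsmAD (only the Lsm and LsmAD domains). Gene counts came from brains of Control_GAL4 flies, the study's Gal4 control, and of Atx2_RNAi flies, with 3 libraries of each. In Atx2_RNAi flies elav-Gal4 drove an RNAi against Atx2 in the presence of Tub-Gal80ts. The study lists a stock with elav-Gal4 and Tub-Gal80ts for this experiment and does not spell out the control's genotype.

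Ataxin-2 is a cytoplasmic protein that acts on the translation and stability of mRNAs and takes part in ribonucleoprotein granules. Its Lsm domain has the fold of the Sm proteins, a family that binds RNA and forms rings, and the disordered regions are known for their part in granule assembly. In the fly, Ataxin-2 is also known from circadian timekeeping and from olfactory habituation.

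Read numbers are not part of the lists, so the precision of a single percent is unknown, and the lowest percent in any list was 15. A position that had too few reads, or fewer edited reads than that, was left out by the authors, so an unlisted position is not shown to be unedited. By the study's methods, the Atx2_WT libraries had longer reads that keep no strand. The libraries of all the domain mutants, Atx2_delta_Lsm among them, had shorter strand-specific reads. The study's table of libraries gives more reads for Atx2_WT, although its text describes depth as similar between experiments. In the lists, the change to Ataxin-2 and these differences in sequencing cannot be told apart, for Atx2_delta_Lsm or for the other altered forms.

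A single Atx2_delta_Lsm library left out a share of an Atx2_WT list close to what the other Atx2_WT library left out, although the lists differ in length. The Atx2_delta_Lsm lists held 940 and 884 positions, those of Atx2_WT 512 and 471, of Atx2_delta_LsmAD 396 and 511, of Atx2_delta_mIDR 493 and 286, of Atx2_delta_cIDR 88 and 116, and of Atx2_Lsm_LsmAD 96 and 87. A longer list has more chances to hold a given position, so these shares do not measure likeness on equal terms. Of the 512 positions of Atx2_WT replicate 1, replicate 2 did not list 200 (39.1%, 95% Wilson interval 34.9% to 43.4%), Atx2_delta_Lsm replicate 1 did not list 185 (36.1%, 32.1% to 40.4%) and Atx2_delta_Lsm replicate 2 did not list 231 (45.1%, 40.9% to 49.4%). Of the 471 positions of Atx2_WT replicate 2, replicate 1 did not list 159 (33.8%, 29.6% to 38.1%), and the Atx2_delta_Lsm libraries did not list 162 (34.4%) and 194 (41.2%). The intervals cover counting error only, and positions in 1 gene are not independent. In the same measure, 53.5% to 66.6% of the positions of an Atx2_WT library were not in a given Atx2_delta_LsmAD library and 48.8% to 73.6% were not in a given Atx2_delta_mIDR library. At least 94.1% were not in a given Atx2_delta_cIDR library, and Atx2_Lsm_LsmAD listed none.

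Most of the Lsm-unlisted positions came from 1 Atx2_WT library. Only 41 of the 229 (17.9%) were in both Atx2_WT lists, 107 were in replicate 1 alone and 81 in replicate 2 alone, whereas 271 of the 442 Lsm-listed positions (61.3%) were in both. Seen from the other side, 41 of the 312 positions common to both Atx2_WT libraries were Lsm-unlisted (13.1%), against 188 of the 359 positions of 1 library (52.4%). Taken singly, the Atx2_delta_Lsm libraries did not list 61 and 90 of the 312 common positions. Of the 442 Lsm-listed positions, 163 (36.9%) were in 1 Atx2_delta_Lsm list only.

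The edit percents of the Lsm-unlisted positions lay close to the threshold, and most of these positions came from 1 library. Their mean percent in Atx2_WT had a median of 17.4 and reached 40.0, whereas that of the Lsm-listed positions had a median of 20.3. Among positions edited under 20% in Atx2_WT, 159 of 373 (42.6%) were Lsm-unlisted. This share was 59 of 210 (28.1%) between 20% and 30%, and 11 of 88 (12.5%) at 30% or more. Within the 312 common positions the shares were 19 of 104, 18 of 138 and 4 of 70. Positions of 1 Atx2_WT library differed little, with a median of 16.8 for members and 17.5 for Lsm-listed positions, of which 74.5% and 75.4% were under 20%. For the 41 common members the Atx2_WT libraries differed by a median of 4.7 percentage points, and 7 of the 41 differed by over 10 points, against a median of 3.3 points and 30 of 271 for common Lsm-listed positions.

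**Figure D1:**
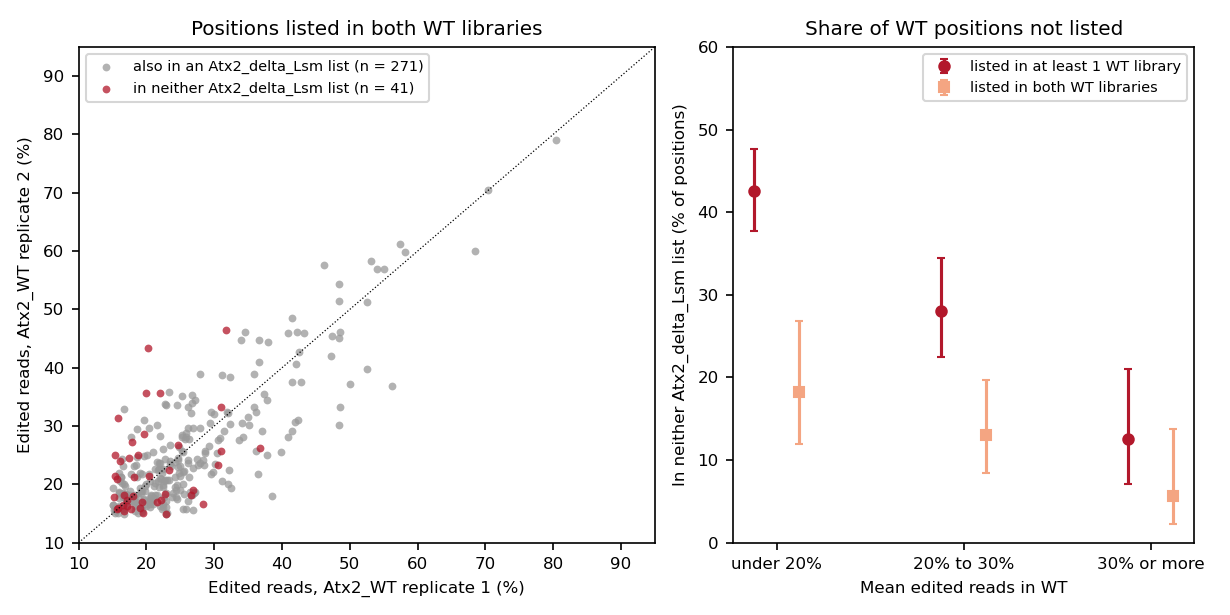
Left, percent of edited reads in Atx2_WT replicate 1 (x axis) and replicate 2 (y axis) for each position in both lists, with the 41 Lsm-unlisted positions in red, the 271 Lsm-listed positions in grey, and the dotted line at equal percents. Right, percent of Atx2_WT positions in neither Atx2_delta_Lsm list by mean edit percent, for all positions (red circles) and those of both libraries (orange squares), with 95% Wilson intervals as bars: the share was 42.6% under 20% and 12.5% at 30% or more.

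The most edited of the common members were spread over genes of several functions. The highest was a coding position of CG42732, named SLO2 in the RefSeq table, a potassium channel gene, at position 10357626 of chromosome 2R, with 31.7% and 46.4% in Atx2_WT replicates 1 and 2. Taspase1, a protease gene, had 31.0% and 33.3% at 16085688 of 3L in the 3′UTR. beat-VI, which encodes a cell surface protein of the immunoglobulin superfamily, had 20.2% and 43.4% at 28442811 of 3R in the 5′UTR. None of these 3 positions was listed in any of the 10 libraries of altered forms. In beat-VI the libraries differed by more than the lower value itself, whereas in Taspase1 they nearly coincided.

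Su(var)3-7, a heterochromatin protein gene, had 36.8% and 26.3% at a coding position (13268390 of 3R) and was listed once more, at 23.8% in Atx2_delta_cIDR replicate 2. CG10866 had 31.0% and 25.7% in the 5′UTR (3937819 of 3L). Lgr1, a leucine-rich repeat receptor gene of the glycoprotein hormone receptor family, had 30.6% and 23.3% at a coding position (17731885 of 3R). These 3 were higher in replicate 1. nbs, a DNA repair gene of the complex that senses double-strand breaks, had 24.6% and 26.8% at a coding position (9722456 of 3L), and igl, which encodes a calmodulin-binding protein of neurons, had 19.7% and 28.6% in the 5′UTR (15155521 of 2R). Lin29, a zinc finger gene, had 20% and 35.6% in an intron (386846 of chromosome 4), and a neighbouring position 2 bases away was listed at 15.6% in replicate 1 alone. CG42732, Taspase1, beat-VI, Su(var)3-7, CG10866, Lgr1, nbs and igl had no position in either Atx2_delta_Lsm list.

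Among members of 1 Atx2_WT library the highest percents were as large. CG17652 had 40.0% at a coding position (1731415 of 2L), Hr38, a nuclear receptor gene that neuronal activity induces, had 38.5% in the 3′UTR (20685725 of 2L), and RpS26, a ribosomal protein gene, had 38.1% in the 3′UTR (18442210 of 2L), each in replicate 1. All 3 were unlisted in replicate 2, and Hr38 and RpS26 were listed in other forms, at 18.2% in Atx2_delta_mIDR replicate 1 for Hr38 and at 31.8% there and 21.4% in Atx2_delta_cIDR replicate 2 for RpS26.

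At the edge of the rule, the common members with the lowest percents were in brat, a translational repressor gene, with 15.6% and 15.8%, in fry, with 15.8% and 16%, and in CG14613, with 16.7% and 15.5%. Just outside it were common positions that Atx2_delta_Lsm listed at its own threshold. CG18812 had 22.4% and 16.2% in Atx2_WT and 15% in Atx2_delta_Lsm replicate 2 alone. janA had 20% and 16.3% against 15.2% in Atx2_delta_Lsm replicate 1 alone, and MKP-4 had 20.4% and 21.8% against 15.4% in the same library.

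In the other altered forms, which the rule did not use, a smaller share of the Lsm-unlisted than of the Lsm-listed positions was listed. By the study's methods these forms were sequenced like Atx2_delta_Lsm and unlike Atx2_WT. In Atx2_delta_LsmAD or Atx2_delta_mIDR, 46 of the 229 were found (20.1%, 15.4% to 25.8%), against 343 of the 442 Lsm-listed positions (77.6%). For common positions the counts were 16 of 41 (39.0%, 25.7% to 54.3%) and 237 of 271 (87.5%). The same direction was seen in each of the 4 libraries. It was 19 of 229 (8.3%) against 173 of 442 (39.1%) in Atx2_delta_LsmAD replicate 1, 12 (5.24%) against 246 (55.7%) in replicate 2, 23 (10.0%) against 255 (57.7%) in Atx2_delta_mIDR replicate 1 and 8 (3.49%) against 141 (31.9%) in replicate 2. These shares are descriptions over positions, with no test, and the higher edit percents and better replicate agreement of the Lsm-listed positions move with them. In none of the 8 lists of the other forms were 181 of the 229 members (79.0%), including 23 of the 41 common ones.

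**Figure D2:**
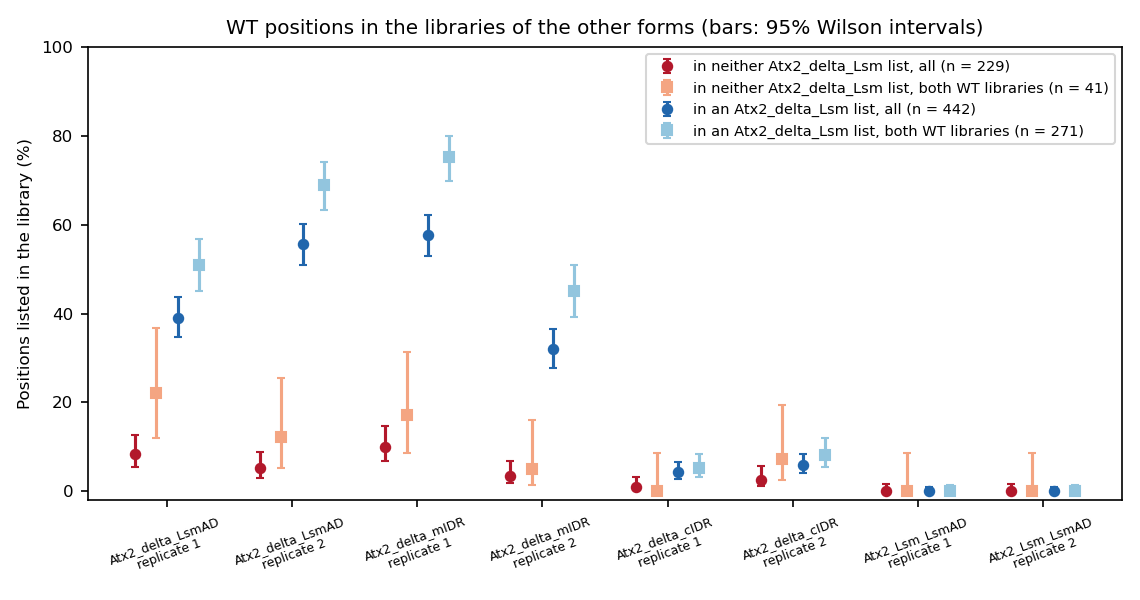
Percent of Atx2_WT positions (y axis) that each of the 8 libraries of Atx2_delta_LsmAD, Atx2_delta_mIDR, Atx2_delta_cIDR and Atx2_Lsm_LsmAD listed (x axis), with all Lsm-unlisted positions as red circles, all Lsm-listed ones as blue circles, squares in orange and light blue for those of both Atx2_WT libraries, and 95% Wilson intervals as bars. In each of the 4 Atx2_delta_LsmAD and Atx2_delta_mIDR libraries the red circles lie below the blue ones.

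Only 2 members were listed in all 4 libraries of Atx2_delta_LsmAD and Atx2_delta_mIDR, and both lie in genes of neuronal signalling. A coding position of natalisin, a neuropeptide gene, had 17.2% and 16.3% in Atx2_WT (14421336 of 3R), 18.2% and 19.4% in Atx2_delta_LsmAD, and 29.3% and 17.1% in Atx2_delta_mIDR. It was thus listed in 6 libraries and missing from both of Atx2_delta_Lsm, while 7 other positions of natalisin were in an Atx2_delta_Lsm list, the nearest 135 bases away. Tbh, the tyramine beta-hydroxylase that makes octopamine, had a 3′UTR position (8027246 of X) with 16.7% in Atx2_WT replicate 2 alone, 20.7% and 17.9% in Atx2_delta_LsmAD, and 20.7% and 18.5% in Atx2_delta_mIDR. The members of DAT, RpL18 and CG4933 were in 3 of the 8 lists of other forms. The 3′UTR position of DAT, the dopamine transporter, had 15.8% and 31.4% in Atx2_WT (16558813 of 2R), 35.0% in Atx2_delta_LsmAD replicate 1, and 39.6% and 18.4% in Atx2_delta_mIDR. RpL18, a ribosomal protein gene, had 21.3% in Atx2_WT replicate 1 alone, 18.5% in Atx2_delta_LsmAD replicate 1, and 16.7% in both Atx2_delta_mIDR libraries. DAT and RpL18 are described here after their values had been seen. DAT had no position at all in Atx2_delta_Lsm, and its other common member, a coding position with 20.4% and 21.4% (16561370 of 2R), was in no list of an altered form.

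Atx2_delta_cIDR listed 7 of the 229 members and Atx2_Lsm_LsmAD listed 0, which allows a share of up to 1.31% by the limit of 3 counts and 1.65% by the Wilson interval. The 7 were in RpS26, Su(var)3-7, RAF2, CG42675, CG4933, gatA and CG10347, and CG4933 was the only one in both Atx2_delta_cIDR libraries, at 21.7% and 30%, above its 16.7% in Atx2_WT replicate 2. At least 1 Atx2_delta_cIDR library listed 34 of the 442 Lsm-listed positions (7.69%), against 3.06% of the members.

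**Figure D3:**
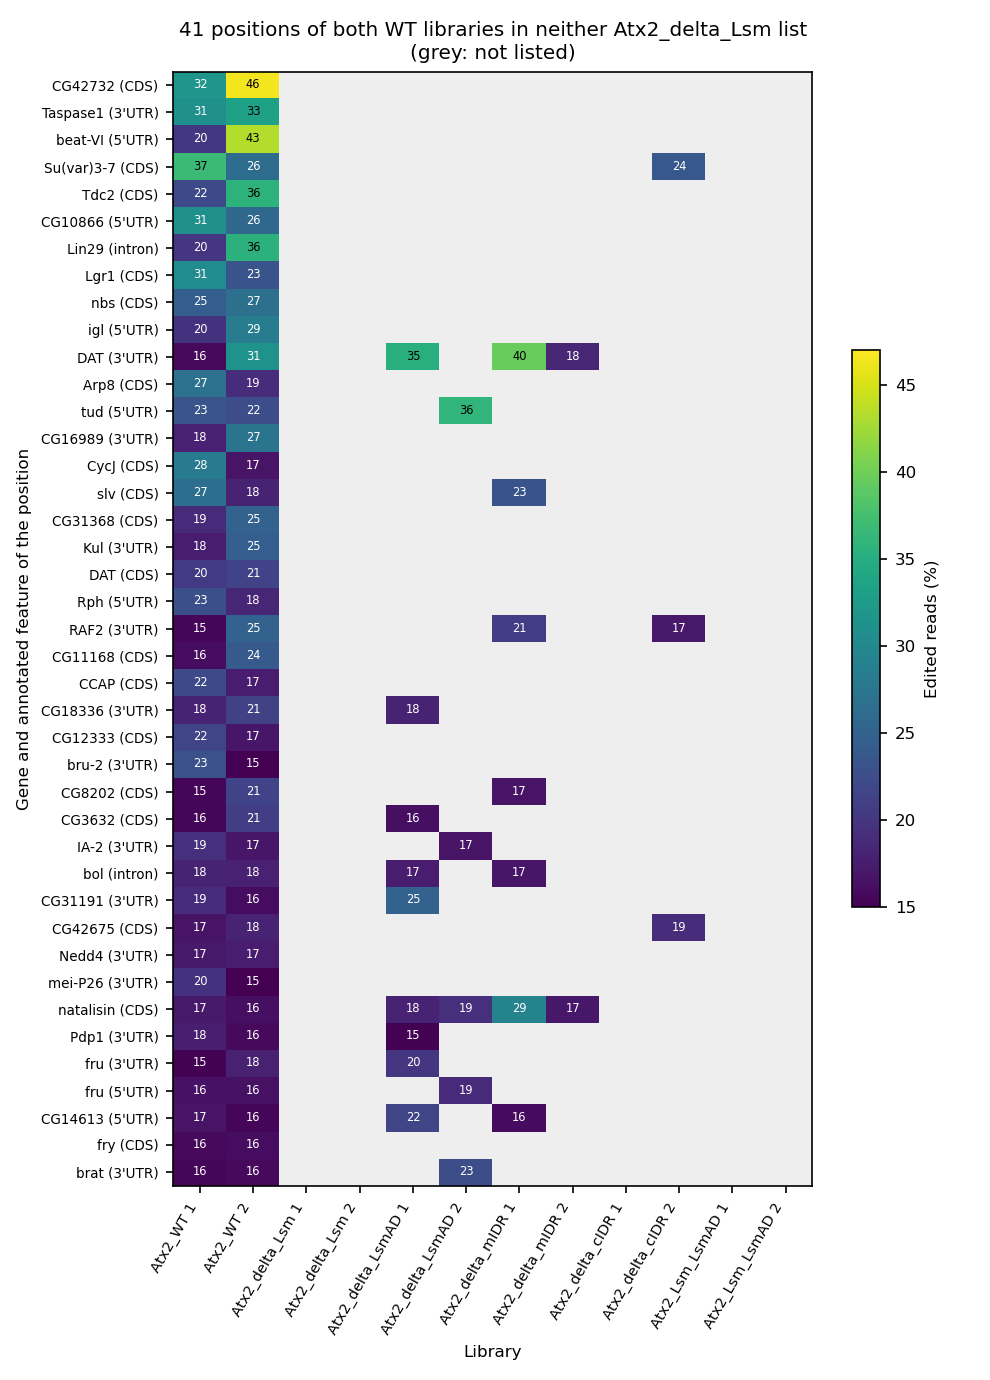
Percent of edited reads in each of the 12 TRIBE libraries (columns) for the 41 Lsm-unlisted positions of both Atx2_WT libraries (rows, by gene and annotated feature, sorted by mean Atx2_WT percent), with unlisted positions in grey. The natalisin row is filled in all 4 Atx2_delta_LsmAD and Atx2_delta_mIDR columns, DAT in 3 of them, and 23 rows hold no value outside Atx2_WT.

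The common members lay less in 3′UTRs and more in coding sequence and 5′UTRs than the common Lsm-listed positions, whereas positions of 1 Atx2_WT library had nearly the same shares in both sets. On the annotation, 132 of the 229 were in a 3′UTR (57.6%, 51.2% to 63.9%), 71 in coding sequence (31.0%) and 19 in a 5′UTR (8.3%), with 2 in noncoding exons and 5 in introns. Of the 442 Lsm-listed positions, 312 were in a 3′UTR (70.6%, 66.2% to 74.6%), 105 in coding sequence (23.8%) and 12 in a 5′UTR (2.71%). Among the 41 common members 14 were in a 3′UTR (34.1%, 21.6% to 49.5%), 18 in coding sequence (43.9%) and 7 in a 5′UTR (17.1%), against 203 (74.9%, 69.4% to 79.7%), 56 (20.7%) and 4 (1.48%) of the 271 common Lsm-listed positions. Among positions of 1 library, 118 of 188 members (62.8%) and 109 of 171 Lsm-listed positions (63.7%) were in a 3′UTR, 28.2% and 28.7% in coding sequence, and 6.38% and 4.68% in a 5′UTR. No test was run over positions, since positions of 1 gene and the choice by listing are not independent draws. With both libraries required or with a threshold of 30%, the 3′UTR share of the members went down to 34.1% and 37.5%. Genes were annotated on both strands at 20 of the 229 members (8.73%) and at 28 of the 442 (6.33%), and without those the 3′UTR share was 56.5%.

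The 7 common members in a 5′UTR were in beat-VI, CG10866, igl, tud, Rph, fru and CG14613. tud, the Tudor germ plasm gene, had 23.4% and 22.5% (21183349 of 2R) and 36.0% in Atx2_delta_LsmAD replicate 2. Rph, which encodes the vesicle protein rabphilin, had 22.8% and 18.4% (10752387 of X), with the adjacent base at 17% in replicate 1 alone. fru, whose transcription factors shape male courtship circuits, had 16.5% and 16.4% in the 5′UTR (18545227 of 3R) and a second common member in the 3′UTR (18416601 of 3R) with 15.2% and 17.9%.

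**Figure D4:**
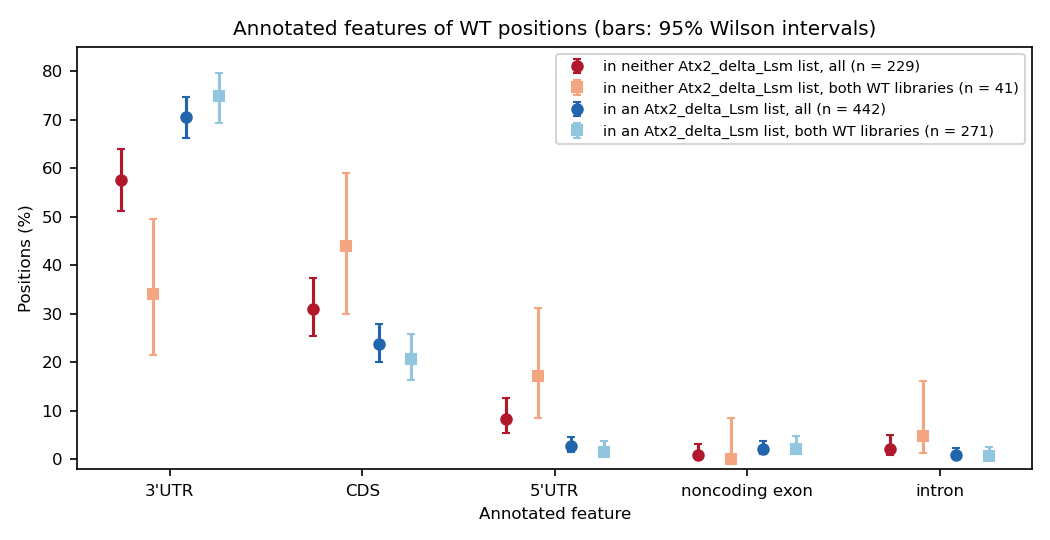
Percent of positions (y axis) in each annotated feature (x axis) for Lsm-unlisted (red circles) and Lsm-listed (blue circles) positions, with orange and light blue squares for those of both Atx2_WT libraries and 95% Wilson intervals as bars. The 3′UTR share was 34.1% for the 41 common Lsm-unlisted positions and 74.9% for the 271 common Lsm-listed ones.

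A part of the members had an Atx2_delta_Lsm position nearby. For 84 of the 229 (36.7%) the gene held at least 1 position of Atx2_delta_Lsm, at a median distance of 546 bases, and that position lay within 100 bases for 18 and within 10 bases for 10. Counting these 10 as listed left 219. The common members nearest to one were in mei-P26 (16 bases), Kul (38), natalisin (135), IA-2 (360) and CycJ (938). The member of mei-P26, a TRIM-NHL gene known from germline differentiation, had 19.5% and 15.1% in the 3′UTR (9188876 of X). That of Kul, a metalloprotease gene, had 17.5% and 24.5% in the 3′UTR (29734531 of 3R). In IA-2, which encodes a protein of dense-core vesicles, the values were 19.4% and 16.9% (1009081 of 2L), and Atx2_delta_LsmAD replicate 2 listed the same position at 16.7%. CycJ had 28.3% and 16.7% at a coding position (3466789 of 3L).

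The 229 positions lay in 204 genes, as the lists name them, and 173 of these held 1 member, 26 held 2, and mei-P26 held 4. CG6123, Glut4EF, fne and rgr held 3 each. No Atx2_delta_Lsm position was listed in 137 of the 204 genes (67.2%), 40 also held an Lsm-listed position, and 27 held only other positions of Atx2_delta_Lsm. In mei-P26 the 4 members were all in the 3′UTR, with 19.5% and 15.1% at the common one and 16.3%, 19.0% and 20% at those of 1 library. rgr had no Atx2_delta_Lsm position, and its members had 21.4% and 15% in replicate 1 and 19.2% in replicate 2. In Glut4EF a pair of positions 3 bases apart had 16.7% each in replicate 1. Neighbouring pairs of members were counted in each gene that the lists name, so a pair in overlapping genes counts more than once. Of the 37 pairs so counted, 7 lay within 10 bases, among them those of Shawn and Tyler, each 1 base apart.

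Monoamines are made and recycled by a small set of enzymes and transporters. Of 12 such genes in the counts, 8 had an Atx2_WT position, 6 had a member, and DAT, ple and Tdc2 had members only. Over all 522 genes with an Atx2_WT position, 204 had a member and 137 had no Atx2_delta_Lsm position. Vmat, the vesicular monoamine transporter, had 7 Lsm-listed positions and 2 members of replicate 1 alone, at 35.0% in the 5′UTR (13532942 of 2R) and at 16.4% in the 3′UTR (13513655 of 2R), the latter 9 bases from an Atx2_delta_Lsm position. Tdc2, the neuronal tyrosine decarboxylase, had a common member at a coding position with 22.0% and 35.7% (6687328 of 2R) and another with 23.8% in replicate 2 alone. ple, the tyrosine hydroxylase of dopamine synthesis, had 17.1% in replicate 1 alone (6713584 of 3L). SerT, the serotonin transporter, had 22.5% in replicate 2 alone and 15.5% in replicate 1 alone, and also 2 Lsm-listed positions.

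Neuropeptides are secreted signals cut from precursor proteins. Of 44 such genes, 14 had an Atx2_WT position, 13 of them an Lsm-listed one, and CCAP, natalisin and sNPF had a member. Over all 522 genes with an Atx2_WT position, 358 had an Lsm-listed one and 204 a member. CCAP, the crustacean cardioactive peptide, had a common coding position with 22.1% and 17.4% (22701004 of 3R) and no position in Atx2_delta_Lsm. sNPF, the short neuropeptide F gene, had 16.2% in replicate 2 alone, 303 bases from an Atx2_delta_Lsm position. Akh, the adipokinetic hormone gene, and 14-3-3epsilon, a phosphoprotein-binding adaptor, had 5 and 2 Atx2_WT positions, and all of them were Lsm-listed.

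Among channel and receptor genes, 3 of the 35 voltage-gated and leak channel genes of the list had an Atx2_WT position, namely tipE, CG4587 and CG42732. Each held a member and no Lsm-listed position. The list does not hold every channel gene. Shawl, a Shaw-like potassium channel gene outside it, had a common Lsm-listed 3′UTR position, with 16.7% and 15.7% in Atx2_WT and 23.1% and 26.5% in Atx2_delta_Lsm. tipE, an accessory subunit of the sodium channel, had 22.7% in replicate 1 alone (4193118 of 3L), 16.7% in Atx2_delta_LsmAD replicate 2 and 20.7% in Atx2_delta_mIDR replicate 2. Of 42 transmitter receptor genes, Dop1R2, Dop2R and Octbeta1R had a member and 5 had an Lsm-listed position. In synaptic vesicle release, Syt7, Sytbeta, Rph, stnA, stnB and VAChT had members, 6 of the 7 genes with an Atx2_WT position out of 35, and stnA and stnB share 1 position. In calcium and cAMP signalling the genes were dnc, Cam, hipk and Pkc53E, 4 of 10. These classes are small, and 204 of all 522 genes with an Atx2_WT position had a member. Cam, the calmodulin gene, had 15% in replicate 1 alone, 20.1% in Atx2_delta_LsmAD replicate 2 and 16.4% in Atx2_delta_mIDR replicate 1.

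RNA-binding and translation factors with a member were tyf, brat, orb2, fne, Rbp9, bol and bru-2, 7 of the 11 with an Atx2_WT position, against 204 of 522 over all genes. tyf, an Ataxin-2 partner in the translation of the clock gene period, had 25.9% in replicate 2 alone in its 5′UTR (4117866 of X). bru-2, of the Bruno family of translational regulators, had 22.9% and 15% at a common 3′UTR position (12396320 of 2L) and 21.4% at another in replicate 1. bol, the boule gene of the DAZ family, had 18.0% and 18.0% at an intronic position of its annotation (9105411 of 3L), and 17.4% and 16.9% in the replicate 1 libraries of Atx2_delta_LsmAD and Atx2_delta_mIDR. tyf, brat, orb2 and bru-2 had no position in Atx2_delta_Lsm.

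Brain expression of the member genes was taken in the 3 Control_GAL4 libraries as CPM, the count scaled to the TMM-normalised size of its library. Of the 204 genes, 188 had enough counts to be tested. Of the other 16, 14 had a count of 0 in all 6 libraries, among them stnA, stnB, Snapin and Tyler, and each of these 14 overlaps another gene on the same strand, where counting can drop the reads of both. The remaining 2, CG18675 and CR32773, had too few counts. The 188 genes had a median log2 CPM of 6.43 (86.3 CPM), with an SD of 0.116 between the libraries' medians. The median was 7.33 (160 CPM) for the 344 tested genes with an Lsm-listed position and 4.56 for all 9197 tested genes. The 124 tested genes with members and no Atx2_delta_Lsm position had a median of 5.14 (35.2 CPM), and the 64 with both had 8.44 (347 CPM).

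Member genes thus lay above the tested genes as a whole and below the genes with an Lsm-listed position. Under the median of all tested genes lay 54 of the 188 (28.7%), against 33 of the 344 (9.59%) and, by construction, 50% of all tested genes. When the genes with Atx2_WT positions were split by Control_GAL4 CPM into 3 equal groups of 164, 95 of 200 positions were Lsm-unlisted in the lowest group (47.5%, up to 53.7 CPM), 49 of 207 in the middle one (23.7%) and 78 of 251 in the highest (31.1%, from 268 CPM). For common positions the shares were 21 of 74 (28.4%), 9 of 111 (8.11%) and 11 (8.94%). Expression in a Control_GAL4 brain is not the read depth of a TRIBE library, and the part of depth in these shares was not tested.

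The genes of common members ranged from CG42675 (3.05 CPM ± 0.999, SD, n = 3), CG18336 (3.80 ± 0.529) and Arp8, a chromatin remodelling gene (5.68 ± 1.19), to Pdp1, a clock transcription factor gene (1535 ± 150), mei-P26 (3085 ± 353) and IA-2 (11356 ± 177). The order of these levels is per library and not per length, so it mixes transcript length with abundance. All 39 genes of common members were tested.

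In the Atx2_RNAi brains more member genes were lower than higher, and the largest group, 89 of 188 (47.3%), passed the test in neither direction. The knocked-down gene itself had 302 CPM ± 14.4 in Control_GAL4 and 239 ± 33.4 in Atx2_RNAi (SD, n = 3), which is -0.34 on the log2 scale (SE 0.122) and has an adjusted p of 0.0584 in edgeR's quasi-likelihood test with Benjamini-Hochberg adjustment, so the Atx2 mRNA did not pass the test. Of all tested genes, 18.6% were lower and 23.1% higher at an adjusted p under 0.05 in that test. Of the 188 member genes, 76 were lower (40.4%, 33.7% to 47.6%) and 23 higher (12.2%), with a median log2 fold change of -0.22 against 0.06 over all tested genes. The 344 genes with an Lsm-listed position, some of which also held a member, had 147 lower (42.7%) and 34 higher (9.88%). The 304 of them without a member had 121 lower (39.8%) and 34 higher (11.2%). Genes with members and no Atx2_delta_Lsm position had 36 of 124 lower (29.0%), and genes with both had 40 of 64 (62.5%).

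These shares went with the expression level. Above 268 CPM, 58.5% of all tested genes were lower, against 44 of 64 member genes (68.8%). Between 53.7 and 268 CPM the values were 32.7% of all tested genes and 26 of 41 member genes (63.4%), and under 53.7 CPM 7.3% and 6 of 83 (7.23%). For genes with Lsm-listed positions only, from the highest range to the lowest, they were 69 of 100 (69%), 50 of 123 (40.7%) and 2 of 81 (2.47%). With scaling by library size alone, which moved the median log2 fold change of all genes from 0.06 to 0.27, 53 member genes were lower and 47 higher, and 10.2% and 33.9% of all genes. Without Control_GAL4 replicate 1, which had 22.0% of its reads outside genes against 12.2% to 14.4% in the other libraries, the counts were 72 lower and 20 higher.

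Markers of other tissues moved between the groups as well, where 18.6% of all tested genes were lower and 23.1% higher. The summed CPM of 11 fat body markers, of which 7 were higher and 2 lower, was 980.5 to 1960 in Control_GAL4 and 13388 to 26240 in Atx2_RNAi. All 7 tested muscle markers were lower, with sums of 395 to 406 against 74.4 to 109. Of 12 neuronal markers, 8 were lower and 0 higher, with sums of 17559 to 21291 against 11515 to 13634, and 4 of 9 glial markers were lower and 1 higher (6956 to 7876 against 4865 to 5845). Among all tested genes above 268 CPM, 58.5% were lower, and 32.7% between 53.7 and 268 CPM. The neuronal markers fne, Rbp9 and VAChT are themselves member genes, and of these VAChT was lower. Of 7 haemocyte markers 4 were higher (737.5 to 1879 against 1341 to 1667), of 9 photoreceptor markers 5 (1050 to 1101 against 1346 to 1807), and of 4 tracheal and epithelial markers 1 (29.8 to 40.9 against 29.6 to 67.8). A further muscle marker, fln, had too few counts to be tested. In bulk brain libraries, fewer cells of a type and less RNA per cell cannot be told apart, and the part of these shifts in the member genes' values was not tested.

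**Figure D5:**
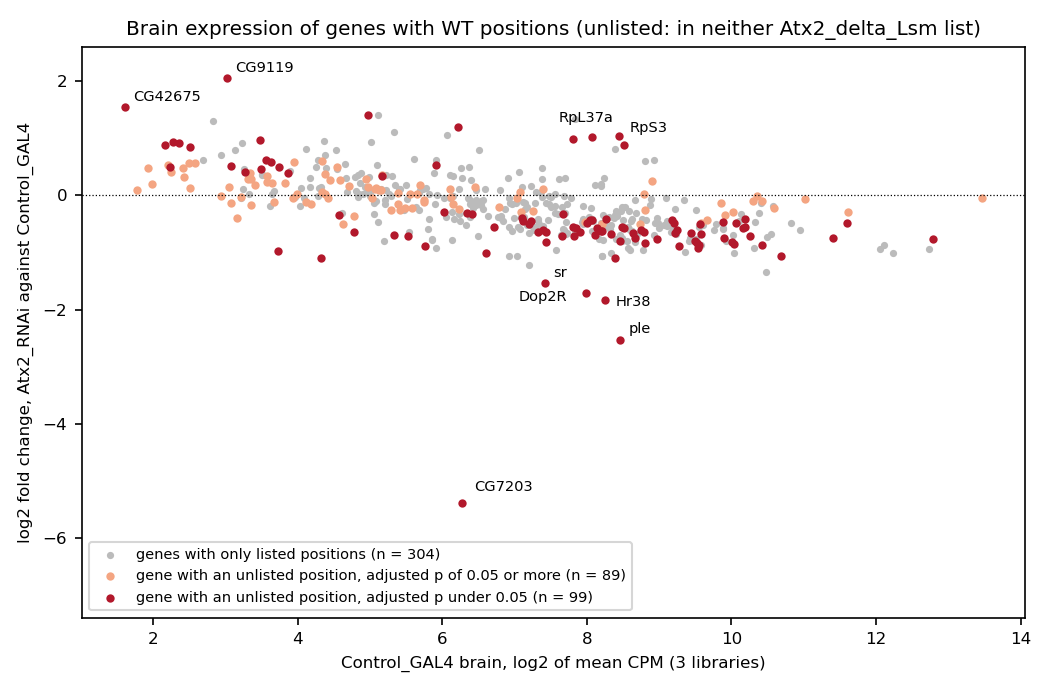
Log2 fold change of Atx2_RNAi against Control_GAL4 brain (y axis) by log2 of the mean CPM in the 3 Control_GAL4 libraries (x axis) for genes with Atx2_WT positions. Red points are the 99 member genes at an adjusted p under 0.05, orange the other 89 member genes and grey the 304 genes with Lsm-listed positions only. Lower genes lie mostly at the right, at high expression, and CG7203 stands apart at -5.39.

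Of the 99 member genes that passed the test, 98 had groups that did not overlap. The share without overlap among all tested genes was not taken, so this count shows nothing particular to the members. The largest falls were in CG7203, ple, Hr38, Dop2R and sr, none of which had an Atx2_delta_Lsm position. The same holds for 124 of the 188 tested member genes. The member of CG7203 was in Atx2_WT replicate 1 alone, at the threshold of 15%. CG7203 had 182, 36.6 and 13.3 CPM in Control_GAL4 and 1.41, 1.92 and 2.14 in Atx2_RNAi, a fold change of -5.39 on the log2 scale (SE 1.01, adjusted p = 0.00562 in edgeR). The Control_GAL4 libraries differed widely, and without replicate 1 the change was -3.79.

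ple had 141, 790 and 122.8 CPM in Control_GAL4 against 53.6, 62.4 and 66.8 in Atx2_RNAi, with a fold change of -2.53 on the log2 scale (SE 0.695, adjusted p = 0.023 in edgeR). A single library, Control_GAL4 replicate 2, stood far above the others, and without it the change was -1.14 (adjusted p = 0.00241). The call was lost without any 1 of the Atx2_RNAi libraries, where the adjusted p lay between 0.0645 and 0.0934. Dop2R, a dopamine receptor gene whose member had 15.5% in replicate 2 alone, showed the same pattern with another library. It had 516, 113 and 130 CPM against 70.7, 83.7 and 77.4, a log2 fold change of -1.71 (adjusted p = 0.0397 in edgeR), which was -0.67 without Control_GAL4 replicate 1 and lost the call without any 1 of the Atx2_RNAi libraries (adjusted p = 0.0919 to 0.13).

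Hr38 and sr, both transcription factor genes that neuronal activity induces in insects, had groups that did not overlap, as the choice of these genes required. Hr38 had 307, 277 and 332 CPM in Control_GAL4 and 73.0, 46.7 and 137 in Atx2_RNAi, a fold change of -1.83 on the log2 scale (SE 0.349, adjusted p = 0.00594 in edgeR). sr had 188, 150 and 175 CPM against 70.8, 42.4 and 63.3, a change of -1.54 (SE 0.192, adjusted p = 0.00122 in edgeR). The Atx2_RNAi libraries spread more widely in Hr38, where the change ran from -1.53 without Atx2_RNAi replicate 2 to -2.35 without replicate 3.

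Of the 5 largest rises, 4 are given here, in CG9119, CG42675, RpS3 and RpL37a, again in genes with no Atx2_delta_Lsm position. CG9119 went from 7.97, 7.54 and 8.91 CPM to 37.9, 29.4 and 34.2, a fold change of 2.06 on the log2 scale (SE 0.141, adjusted p = 2e-04 in edgeR). CG42675, the lowest expressed gene with a common member, went from 3.09, 4.03 and 2.03 CPM to 9.23, 9.98 and 7.56, a change of 1.54 (adjusted p = 0.00397). The ribosomal protein genes RpS3 and RpL37a rose by 1.04 and 1.03 on the log2 scale. RpL18 and RpS26, which encode other ribosomal proteins with a member, rose by 0.98 and 0.88 (adjusted p = 0.00223 and 0.00403 in edgeR). The position in RpS3 had 16% in replicate 2 alone and that in RpL37a 25.0% in replicate 1 alone, so neither was common.

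Among the genes of the most edited common members, igl and beat-VI passed the test and were lower. igl had 1051, 1052 and 1033 CPM against 564, 558 and 616, a fold change of -0.85 on the log2 scale (SE 0.1, adjusted p = 0.001 in edgeR), and beat-VI had 189, 202 and 214 against 120.3, 122.5 and 125.9, a change of -0.71 (adjusted p = 0.00119). CG10866 was lower by a log2 value of -0.64 (adjusted p = 0.009). CG42732, Taspase1, Su(var)3-7, Tdc2, Lin29, Lgr1 and nbs did not pass, with changes from -0.50 to 0.15. Of the 39 genes of common members, 11 were lower (28.2%) and 4 higher (10.3%), against 18.6% and 23.1% of all tested genes. The fall of fru was the largest among the 39, at -1.10 (adjusted p = 0.00798 in edgeR), and the rise of CG42675 the largest in the other direction.

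The monoamine genes with members differed among themselves. Vmat had 1854, 1331 and 1736 CPM against 650, 788 and 907, a log2 fold change of -1.07 (adjusted p = 0.00363 in edgeR), and SerT had 51.8, 51.7 and 58.8 against 28.3, 28.9 and 31.0, a change of -0.88 (adjusted p = 9.47e-04). Tbh was lower too, at -0.50 (adjusted p = 0.00925). DAT and Tdc2 did not pass, with -0.15 and -0.37, and their groups overlapped. Over the list, 6 of 11 tested genes were lower and 1 higher, with a median of -0.78. Of all tested genes, 18.6% were lower and 23.1% higher.

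Among the other lists, 23 of 34 tested channel genes and 35 of 41 receptor genes were lower, whether or not they held an Atx2_WT position. So were 28 of 33 vesicle release genes and 22 of 32 signalling genes. The share of all tested genes was 18.6%, or 32.7% between 53.7 and 268 CPM and 58.5% above 268 CPM. Of the member genes in them, tipE, CG4587, Dop1R2, Octbeta1R, Syt7, Sytbeta, Rph, VAChT, dnc, Cam, hipk and Pkc53E were lower, at log2 fold changes between -0.92 (hipk) and -0.31 (Rph). The calls of CG4587, Rph and dnc were lost with scaling by library size alone, at adjusted p of 0.0577, 0.485 and 0.0612 in edgeR, and that of hipk without Atx2_RNAi replicate 1 or 3 (0.0779 and 0.0512). Rph also lost its call with upper-quartile scaling (0.078), with no filter on low counts (0.0793) and without any library but Control_GAL4 replicate 1 (0.063 to 0.144), and CG4587 without Control_GAL4 replicate 3 (0.0545) or Atx2_RNAi replicate 1 (0.0558) or 3 (0.0534). Scaling by library size alone left 13 channel, 32 receptor, 25 vesicle release and 15 signalling genes lower, and 10.2% of all tested genes. Of the 38 tested RNA-binding genes, 14 were lower and 3 higher, or 4 and 5 with scaling by library size alone. orb2, a CPEB translational regulator gene, and bol were lower at -0.49 and -0.55, calls that this scaling ended (adjusted p = 0.0949 and 0.0546 in edgeR) and that leaving out any 1 Atx2_RNAi library ended too, whereas tyf, brat, fne, Rbp9 and bru-2 did not pass. Of 37 tested neuropeptide genes 20 were higher and 4 lower, against 23.1% and 18.6% of all tested genes. The members natalisin, CCAP and sNPF, at 0.36, 0.57 and 0.02, did not pass.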

How the data were processed

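The authors deposited lists of edited positions with an edit percent, made by TopHat2 mapping to dm6 and a comparison with control brains, keeping positions above their minimum of reads and percent. The control TRIBE libraries were not analysed here. A position was counted once even where the lists name it under more than 1 gene, except in the count of neighbouring pairs. Counts per gene were deposited by the authors without normalisation, from STAR and HTSeq with strand. Library depth was 11169973 to 14324466 counts. Positions were placed on the Ensembl 115 annotation (BDGP6 release 6.54, the coordinates of dm6) as 3′UTR before CDS before 5′UTR, and 201 of 204 gene symbols matched.

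The gene counts went into edgeR 4.0.16 under R 4.3.3 (TMM, filterByExpr with a minimum of 10 counts, quasi-likelihood, Benjamini-Hochberg over all 9197 genes). The same fit was also run on simulated counts with an equal dispersion for every gene, which these libraries need not follow, so no conclusion is drawn from it. DESeq2 1.42.0 was an alternative. Listing values had no test, and the Wilson intervals (95%) reflect counting alone. The positions were handled in Python 3.11.15 with scipy 1.17.1. Replicates of a group differed beyond sampling noise. The study pooled several brains for each replicate and calls the brain samples biological replicates, so p-values measure only the spread between libraries of such pools.

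The members and gene lists were chosen with earlier results of these data known. Named positions were those with the highest Atx2_WT percent, in the other forms, nearest to an Atx2_delta_Lsm position or at the edge of the rule. Named genes had 3 or more members, the 5 largest changes in each direction with no overlap, or the highest and lowest CPM, or were of the lists or in the study's text. The S2 cell libraries and the sequences around positions were not analysed here, and 1 gene that the rule names is not reported here.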

Additional observations from a re-analysis of the deposited data

How the results depend on the processing

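Of 72 alternative values, 35 stayed close to the reported value and 37 moved. With an Atx2_WT percent of at least 20, there were 76 members, 11 of them in both Atx2_WT lists, 48.7% in the 3′UTR, 56 genes without an Atx2_delta_Lsm position, a median log2 CPM of 5.57, and 21 genes lower and 10 higher of 68 tested. At 30 or more these were 16 members, 2 common, 37.5% in the 3′UTR, 31.2% in Atx2_delta_LsmAD or Atx2_delta_mIDR, and 13 genes. With both Atx2_WT libraries required, they were 41 members, 34.1% in the 3′UTR, 39.0% in those forms, 28 genes, a median of 5.17, and 11 genes lower and 4 higher of 39. By genes in place of positions the number was 137. Only 1.75% of members were in both libraries of Atx2_delta_LsmAD or of Atx2_delta_mIDR, and per kb of exon the median log2 CPM was 4.40. Leaving out 1 library at a time gave 122 to 335 members, 61 to 90 common ones, 50.0% to 60.1% in the 3′UTR, 22.95% to 34.3% in those forms, and 80 to 210 genes. Leaving out Atx2_delta_Lsm replicate 1 gave the largest of the counts (335 members, 90 common, 34.3%, 210 genes), and leaving out Atx2_WT replicate 1 the smallest (122 members, 50.0%, 80 genes), against 148 members and 88 genes without Atx2_WT replicate 2. In brain, leaving out 1 library gave 53 to 76 lower and 13 to 20 higher genes, with 14, 14 and 13 higher without Atx2_RNAi replicate 1, 2 and 3. Library size alone gave 47 higher and DESeq2 15. The replicate numbers did not pair the brain libraries (correlations of same-numbered deviations of -0.128, -0.207 and -0.064), and with the replicate block 54 genes were lower and 15 higher, without the calls of Dop2R, CG4587, Rph, hipk, orb2 and bol among the genes named as lower. Over all genes, library size alone gave 935 lower and 3119 higher, against 1712 and 2120. No paired analysis was possible for the TRIBE lists because they give no test. The alternative without positions in genes of both strands was chosen after seeing the data and left 209 members, with 56.5% in the 3′UTR and 20.1% in those forms. The lists hold no read numbers, so no threshold on depth could be tried.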
